A study of Drosophila melanogaster with 4 samples.

Results

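The combined cluster list of a ChIP-seq study of JHDM1 in Drosophila melanogaster embryos held 11598 regions on all sequences. Of these, 2229 regions lay on chromosome arm 3L. The regions described here are all rows of that list on the sequence 3L, the left arm of the third chromosome. It spans 24.5 Mb in FlyBase release 5 of the genome. The study used wild-type Oregon-R embryos, 14 to 16 h of age, and had 2 ChIP samples, for which antibody Q2634 to JHDM1 was used, beside 2 inputs, which are chromatin without immunoprecipitation. Embryos were fixed with 1.8% formaldehyde and their chromatin was left with antibody for 15 h. Each ChIP replicate has a cluster list of its own, so every member on 3L could be marked by whether it overlapped, by 1 base or more, a cluster of replicate 1 and of replicate 2. The input samples have no list here. The chromatin came from whole embryos, so strong binding in few cells and weak binding in many cannot be told apart. The labels call the samples replicates without naming separate embryo collections, and the spread between them may therefore be technical. The labelled stage and antibody target were taken as given, since lists of positions hold no value to set against them.

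JHDM1 is the fly member of the KDM2 family. These proteins carry a JmjC domain that removes methyl groups from a lysine of histone H3, and a CXXC zinc finger, a domain that in mammalian family members binds CpG sites without methylation. In Drosophila the protein is also known as a subunit of a Polycomb group complex, dRAF, which ubiquitylates histone H2A. Positions on 3L are counted from the telomere side. The highest positions lie next to the centromere, where fly chromosomes pass into pericentric heterochromatin, sequence rich in repeats.

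On 3L the replicates gave nearly the same amount of JHDM1-enriched sequence. Replicate 1 had 918 clusters over 1.89 Mb and replicate 2 had 927 clusters over 1.93 Mb, a mean of 922.5 ± 6.36 clusters (SD, n = 2). These took up 7.68% and 7.84% of the arm. The 2229 members of the combined list covered 4.50 Mb, or 18.3% of the arm. The lists hold positions and scores but no numbers of reads, so the depth behind any cluster is unknown. All values below describe these lists.

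Members found in neither replicate nearly equalled in number those found in at least 1, and fewer than 3 in 10 were found in both. Of the 2229 members, 613 overlapped clusters of both replicates, or 27.5% (exact 95% Clopper-Pearson interval 25.7 to 29.4%). A further 265 members (11.9%) overlapped a cluster of replicate 1 alone and 276 (12.4%) a cluster of replicate 2 alone. The remaining 1075, or 48.2% (46.1 to 50.3%), overlapped a cluster of neither replicate. Over all 6 arms, which are 3L with X, 2L, 2R, 3R and chromosome 4, 27.8% of the combined clusters were found in both, 11.4% in replicate 1 alone, 11.6% in replicate 2 alone and 49.1% in neither. The shares on 3L lay near these values. The share in both on 3L minus that on the other 5 arms, 27.9%, was -0.387 percentage points, with a normal 95% interval from -2.46 to 1.68, which includes 0. The intervals take in only the error of counting, as if clusters were independent. The combined list comes from the same ChIP samples, so overlap with the replicate lists is not independent support for a member.

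Members found in both replicates were the wide ones. They had a median width of 2589 bases, against 1245 bases for members found in neither. Members found in 1 replicate lay between, with medians of 1901 bases for replicate 1 alone and 1872 bases for replicate 2 alone. The members found in both made up 41.7% of the sequence that the combined list covered on 3L. In the median member found in both, 85.8% of the length lay in replicate 1 clusters and 86.0% in replicate 2 clusters, with middle ranges of 67.8 to 95.1% and 69.0 to 94.99%. In 5 of the 613 the clusters of the replicates lay at different places within the member and did not meet each other. The widest of these was 3L:1097760-1103269, with 5510 bases.

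Support climbed steeply with width around 2 kb. No member narrower than the narrowest replicate cluster, of 1301 bases, was found in both replicates, out of 651 such members, and 607 of them were found in neither. From 1701 to 1900 bases, 11.5% of 208 members were found in both. From 1901 to 2100 bases the share was 45.5% of 220 members, and from 2101 to 2300 bases it was 70.6% of 177 members. From 2301 to 3000 bases it was lower again, at 52.3% of 222 members (95% interval 45.5 to 59.0%). Of the 52 members wider than 5000 bases, 50 were found in both. How far width alone sets these shares was not tested. On the other 5 arms the share was 67.4% from 2101 to 2300 bases and 58.4% from 2301 to 3000 bases, so a lower value after the same class was present there too.

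**Figure D1:**
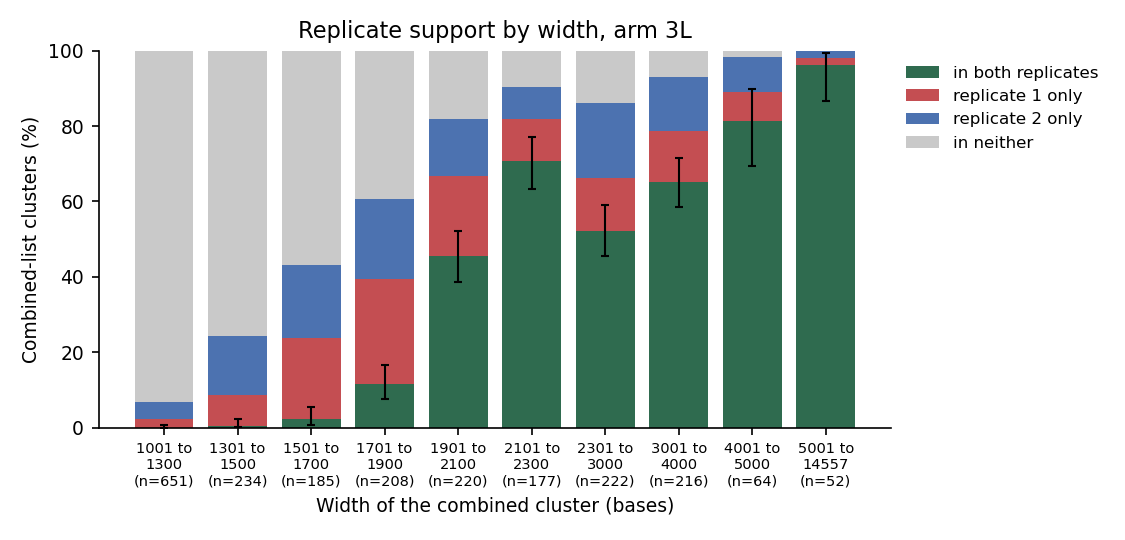
Share of combined-list clusters on 3L (y axis, %) found in both replicates, in replicate 1 only, in replicate 2 only or in neither, by width of the combined cluster (x axis, bases, with the number of clusters). Black bars are exact 95% intervals of the share in both, which is 11.5% from 1701 to 1900 bases and 70.6% from 2101 to 2300 bases.

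Compared with each other, the replicate lists also shared more of their wide clusters than of their narrow ones. On 3L, 630 of the 918 clusters in replicate 1 met at least 1 in replicate 2, or 68.6% (65.5 to 71.6%), and 632 of 927 in replicate 2 met at least 1 in replicate 1, or 68.2% (65.1 to 71.2%). From 1301 to 1500 bases, 39.0% of the replicate 1 clusters and 34.0% of the replicate 2 clusters were shared. From 2101 to 2300 bases the shares were 95.3% and 89.9%, and from 2301 to 3000 bases they were 91.95% and 93.1%. Replicate 1 was thus slightly lower in the wider class, by less than the combined list was, while replicate 2 was higher. Shared clusters sat close together: the centres of paired clusters lay a median of 122.5 bases apart over 630 pairs, and 70.2% of pairs had centres within 250 bases. In the median pair the smaller cluster lay wholly inside the larger.

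Cluster widths piled up at 2 values in the replicates. Replicate 1 had 109 clusters from 1301 to 1400 bases, only 54 from 1601 to 1700 bases, and 109 again from 2001 to 2100 bases. Replicate 2 had 117, 56 and 108 clusters in the same classes, with its lowest count in between, 49, from 1701 to 1800 bases. The first of these heaps lay at the narrow end of the lists, and the second near 2 kb. In the combined list the narrow end lay at 1001 bases, the width of 50 members, and 317 members were at most 1100 bases wide. It too had a local maximum below 2 kb, with 123 members from 1901 to 2000 bases.

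**Figure D2:**
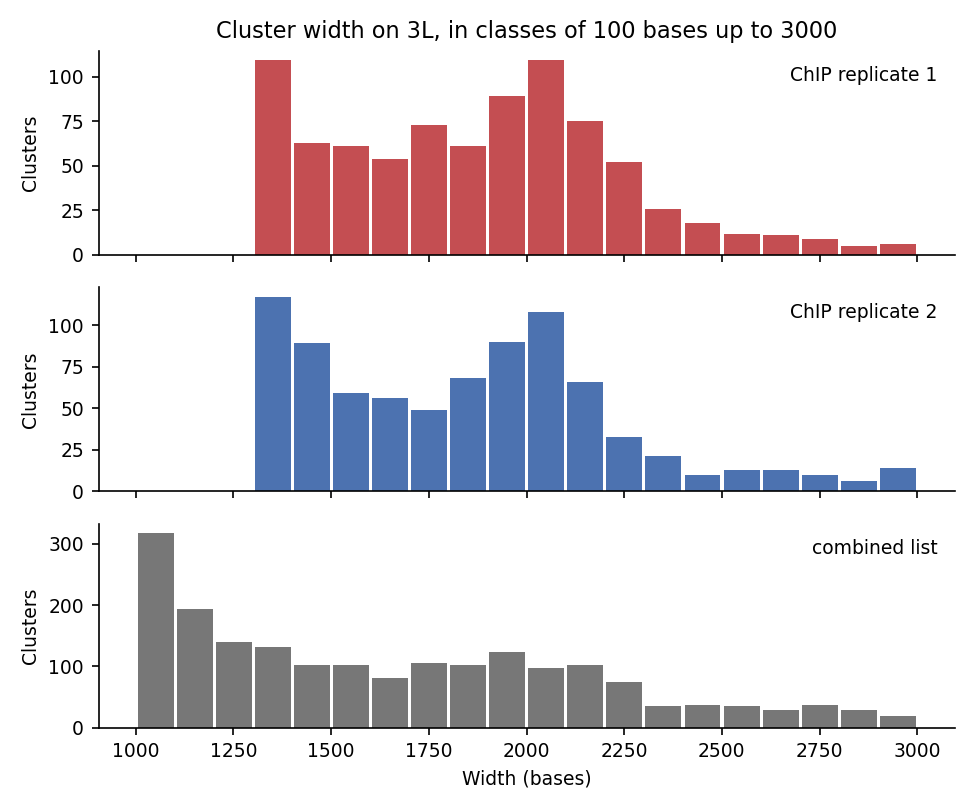
Number of clusters on 3L (y axis) by width in classes of 100 bases (x axis, bases) for ChIP replicate 1, ChIP replicate 2 and the combined list, up to 3000 bases. Both replicates have a heap at the narrow end, with 109 and 117 clusters, and another from 2001 to 2100 bases, with 109 and 108.

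The relation of the authors' own score to width changed direction near the same place. The scale of the score is not stated, and in this paragraph it is used within a list only. Where scores of the replicate lists are set side by side below, a shared scale is not established. In the combined list the median score was 0.445 for the 317 members of 1001 to 1100 bases and 0.358 for the 208 members of 1701 to 1900 bases. It was 0.389 from 1901 to 2000 bases, 0.443 from 2001 to 2100 bases and 0.528 from 2101 to 2200 bases. Across the 1278 members up to 1900 bases wide, Spearman's rho between width and score was -0.50, and across the 397 members above that and up to 2300 bases it was 0.64. For wider members it was 0.14 over 554. In the middle range the replicate lists gave 0.80 over 325 clusters and 0.78 over 297. Up to 1900 bases their rho was closer to 0, at -0.19 in replicate 1 and -0.10 in replicate 2. Above 2300 bases it was -0.14 and -0.10, of opposite sign to the combined list. These are descriptions across clusters that share a library and a caller. In the middle range, rho was 0.62 on X, 0.64 on 2L and 0.68 on 3R, so 3L did not stand apart.

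Support followed the score mainly at its upper end. When the members were divided into 10 classes of nearly equal size by combined score, 94.2% of the highest class and 66.8% of the next were found in both replicates. In the lowest 6 classes the share ran between 4.48% and 14.9%. Members found in both had a median combined score of 0.532, against 0.410 for members found in neither, a difference of 0.122. Members found in 1 replicate alone had medians of 0.387 for replicate 1 and 0.400 for replicate 2, slightly below those of members found in neither. These medians pool all widths. From 1701 to 1900 bases, members in both scored lower than members in neither, with medians of 0.328 over 24 and 0.379 over 82. From 2101 to 2200 bases they scored higher, with 0.575 over 75 and 0.425 over 9. Of the 112 members in the top 5% by score, 106 were found in both.

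**Figure D3:**
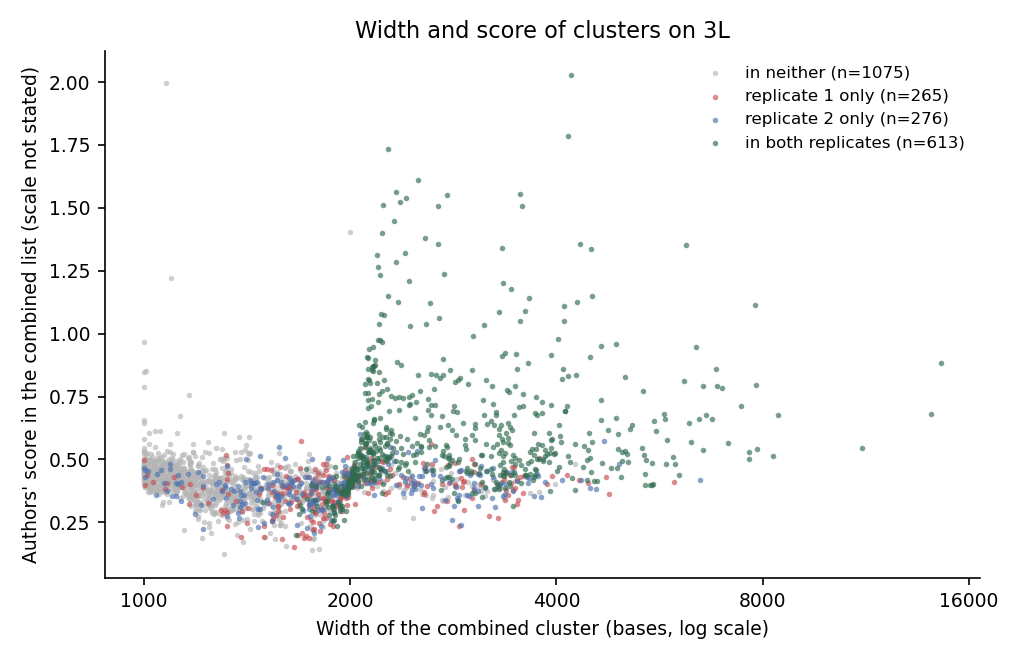
Width (x axis, bases, log scale) and the authors' combined score (y axis, scale not stated) of each of the 2229 clusters on 3L, coloured by replicate support. Scores above 0.794, the top 5%, were found in both replicates for 106 of 112 clusters, and the lower edge of the cloud dips and turns upward close to 2000 bases.

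The 10 highest-scoring members found in both replicates were wider than the arm's median of 1750 bases and narrower than the 10 widest. The highest combined score on the arm, 2.03, belonged to 3L:13425041-13429244, of 4204 bases, which also had the highest score of the arm in either replicate list, 2.41 in replicate 1 and 1.79 in replicate 2. Replicate 1 covered 99.8% of it, and replicate 2 covered only 66.9%, from 13425090 to 13427902. The next among members found in both was 3L:15719711-15723866, of 4156 bases, which scored 1.79 in the combined list, 1.94 in replicate 1 and 1.75 in replicate 2. It was followed by 3L:22839754-22842025, which scored 1.73 in the combined list, 1.93 in replicate 1 and 1.47 in replicate 2. At 3L:14266400-14268907 the scores were 1.61, 1.66 and 1.70 in the same order, and at 3L:13106257-13108588 they were 1.56, 1.65 and 1.50.

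The other members of the 10 highest had combined scores from 1.51 to 1.55. They were 3L:14664995-14668536, 3L:19036807-19039573, 3L:22399567-22401977, 3L:1487549-1489909 and 3L:18633413-18635641. Replicate scores differed most at 3L:14664995-14668536, with 1.93 in replicate 1, where it ranked 5, and 1.24 in replicate 2, where it ranked 27. They differed least at 3L:14266400-14268907, with a mean of 1.68 ± 0.0304 (SD, n = 2). All 10 were 2229 to 4204 bases wide, with a median of 2459.5, and 8 of the 10 scored higher in replicate 1. Over all 630 pairs on the arm, replicate 1 had the higher score in 49.0%. Since each list has its own score and a shared scale is not stated, these comparisons describe the lists. They do not measure a difference in binding between the replicates.

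None of the 10 highest was among the 10 widest. The widest member was 3L:17952495-17967051, with 14557 bases in the combined list. Each replicate had 1 unbroken cluster there. That of replicate 1 was 13998 bases wide and began at 17952630, and that of replicate 2 was 13948 bases wide and began at 17953024. Its combined score was 0.885, with 0.832 in replicate 1 and 0.991 in replicate 2. All 3 lists thus gave nearly the same wide block at a moderate score.

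The next widest members were broken up in the replicates. The member 3L:631930-646048, of 14119 bases, held 3 clusters in each replicate, more than any other member. In replicate 1 these ran from 632496 to 636722, from 637630 to 641205 and from 642068 to 644123, with scores of 0.730, 0.915 and 0.591. In replicate 2 they ran from 632544 to 637686, from 637767 to 641590 and from 642196 to 644276, with scores of 0.778, 0.859 and 0.581. Each cluster of one replicate thus had its counterpart in the other, and the middle one scored highest in both. The member 3L:6733294-6744456, of 11163 bases, held 2 clusters in each replicate, which filled 40.5% and 56.4% of it.

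Among the other wide members, scores were as uneven as widths. The member 3L:5347235-5355047, of 7813 bases, had the highest combined score of the 10 widest, 1.11. Its first part, 5347252 to 5350949 in replicate 1 and 5347305 to 5350859 in replicate 2, scored 1.61 and 1.30, while its second part scored 0.671 and 0.727. At 3L:539374-547205, of 7832 bases, replicate 1 had a cluster of 4890 bases where replicate 2 had separate clusters of 2194 and 2282 bases. At 3L:3143984-3151620 the replicates covered 32.5% and 43.6% of the 7637 bases, and their highest scores there were 0.755 and 0.617. The 10 widest had combined scores from 0.501 to 1.11, below all of the 10 highest. On the whole arm, 35 members held 2 clusters of replicate 1 and 42 held 2 clusters of replicate 2.

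Nearly every replicate cluster had a place in the combined list, which comes from the same ChIP samples. In replicate 1, 8 clusters of 918 on 3L overlapped no member, and in replicate 2, 9 of 927. They were 1304 to 1396 bases wide in replicate 1 and 1333 to 1854 bases wide in replicate 2. None of them was shared between the replicates. In the reverse direction, 5 clusters of replicate 1 and 15 of replicate 2 each spanned 2 or more members.

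A few members scored high in the combined list and were found in neither replicate. The highest was 3L:23365250-23366324, of 1075 bases, with a combined score of 1.997, second on the whole arm. The next were 3L:14718698-14720698, of 2001 bases, with 1.40, and 3L:14304963-14306058, of 1096 bases, with 1.22. The scores then dropped to 0.965 at 3L:23432255-23433255 and 0.850 at 3L:565472-566476. Of these, 3L:14718698-14720698 belonged to a width class, 1901 to 2100 bases, in which 18.2% of members were found in neither. The others were near the narrow end of the list.

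Along the arm, JHDM1 members were dense next to the telomere, thinner in the middle of the arm and few next to the centromere. In stretches of 5 Mb from the telomere side, the combined list had 119.4, 95.2, 74 and 95 members per Mb. The last stretch, of 4.54 Mb, had 68.4. The replicates were likewise highest in the first stretch and low in the third and the last, with 49.2 ± 1.13, 38.4 ± 1.41, 31.8 ± 1.41, 41.1 ± 0.141 and 26.4 ± 0 clusters per Mb (SD, n = 2). In the last stretch each replicate had 120 clusters. Neighbouring stretches differed by more than the spread between replicates. The second and the fourth, nearly equal in the combined list, had 38.4 and 41.1 clusters per Mb in the replicates.

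At a finer scale the arm alternated between crowded and thin megabases. Counted in bins of 1 Mb by cluster midpoint, the first 5 bins held 123, 145, 105, 122 and 102 members. The next 5 held 67, 73, 87, 130 and 119. Bins 11 to 15 held 58, 78, 83, 82 and 69, and bins 16 to 20 held 71, 114, 110, 78 and 102. Bins 21 to 23 held 89, 119 and 85, and the last full bin, number 24, held 9. The final bin, of 544 kb, held 9 as well. The arm thus had a crowded start, thinner bins of 67 to 87 members from 5 to 8 Mb and another crowded pair at 8 to 10 Mb. Thin bins from 10 to 16 Mb held 58 to 83 members. From 16 to 23 Mb there were 78 to 119 members per bin, before the drop.

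The densest bin was 3L:1000001-2000000, where 145 members covered 30.5% of the sequence, with 62 clusters in replicate 1 and 66 in replicate 2. Behind it came 3L:8000001-9000000, with 130 members and 49 and 51 replicate clusters, and 3L:1-1000000, with 123 members and 57 and 56. The sparsest full bin was 3L:23000001-24000000, with 9 members over 1.20% of the sequence and 1 and 3 replicate clusters. Outside the centromere side, the sparsest was 3L:10000001-11000000, with 58 members, 10.2% covered, and 17 and 20 replicate clusters. After it came 3L:5000001-6000000, with 67 members, where the replicates differed more, with 25 and 34. Over the 24 full bins Pearson's r between the replicate counts was 0.92, and it was 0.87 without bin 24. Both counts come from 1 pair of samples, and neighbouring bins are not independent.

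**Figure D4:**
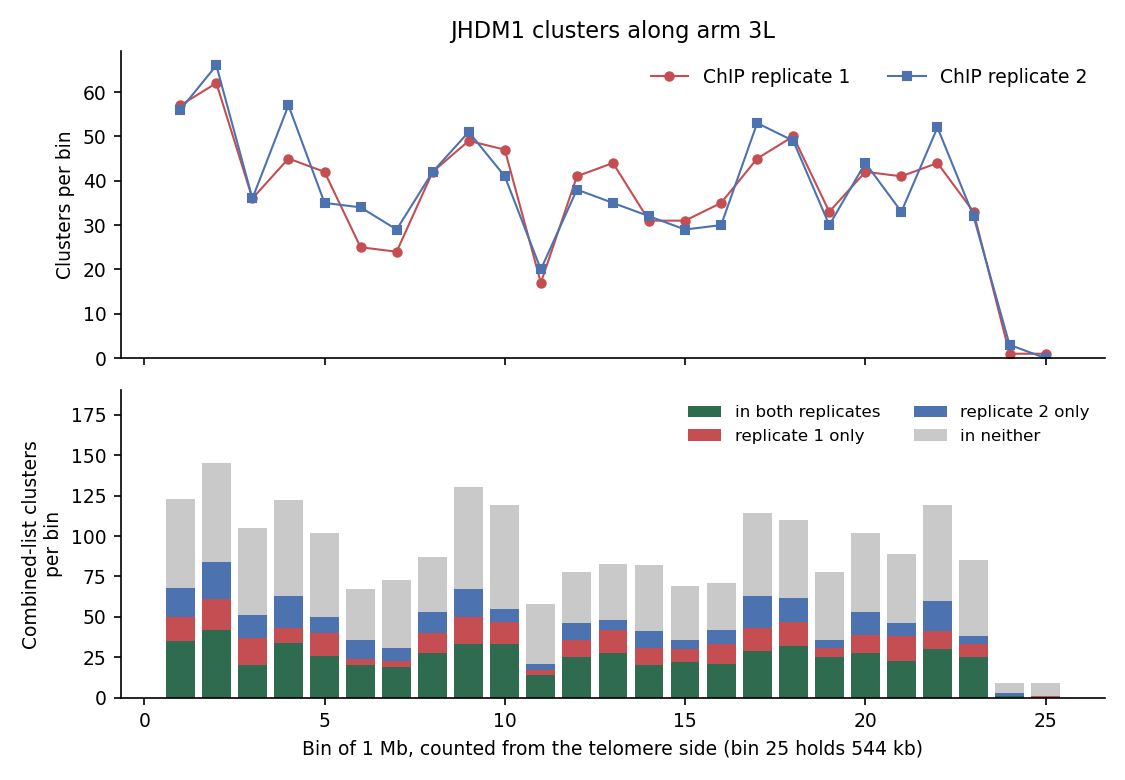
Clusters per bin of 1 Mb along 3L, counted from the telomere side (x axis). The top panel gives both ChIP replicates (points joined by lines) and the bottom panel the combined list, stacked by replicate support. Bin 2 is the highest in every list, bin 11 dips to 17 and 20 replicate clusters, and bins 24 and 25 hold 9 combined clusters each.

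Replicate support varied less along the arm than density did. Over the first 23 bins the number of members ranged from 58 to 145, while the share found in both replicates ranged from 19.0% in bin 3 to 33.7% in bin 13, with a mean of 27.9% ± 3.39 (SD over bins). In the 5 Mb stretches it was 26.3%, 27.9%, 29.5%, 28.4% and 25.4%, and each value lay inside the interval of each of the others. Members found in both and in neither crowded in the same bins, with an r of 0.69 over the first 23 bins. Bin 3, 3L:2000001-3000000, had 105 members and only 20 in both, with 36 clusters in each replicate. Bin 11 had the largest share in neither among the first 23 bins, 63.8% of 58 members.

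The largest share of high scores lay in the thin stretch from 10 to 15 Mb. There, 8.38% of members belonged to the top 5% of combined scores (95% interval 5.76 to 11.7%), against 3.54% to 5.04% in the other stretches. Each replicate, with its own top 5%, gave its largest share there too, 9.76% in replicate 1 and 8.44% in replicate 2. In the other stretches replicate 1 had 2.50% to 5.35% and replicate 2 had 3.33% to 5.58%. These shares rest on 16 of 164 clusters in replicate 1 and 13 of 154 in replicate 2, and the difference between stretches was not tested. The median score differed little along the arm, from 0.410 between 15 and 20 Mb to 0.429 in the first 5 Mb.

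**Figure D5:**
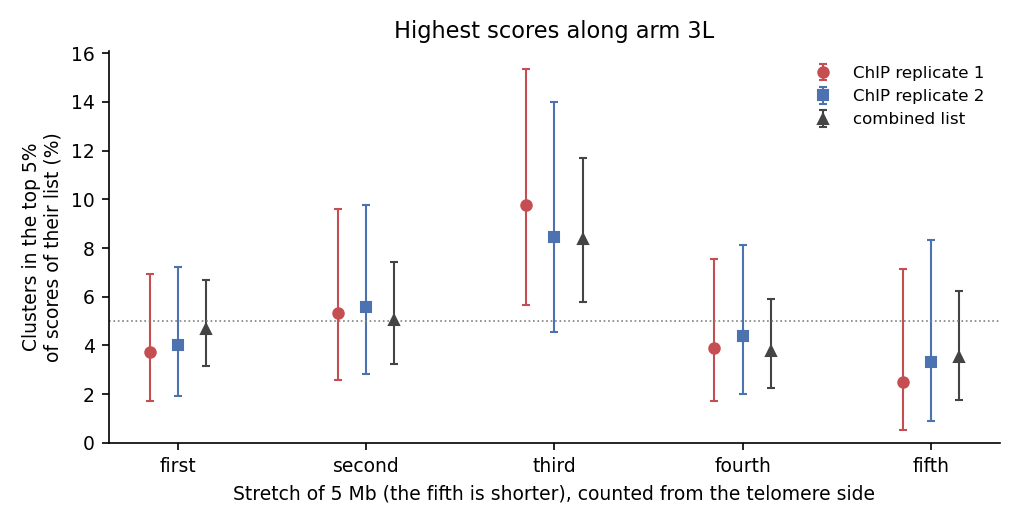
Share of the clusters in each stretch of 5 Mb of 3L (x axis, counted from the telomere side) that belong to the top 5% of scores of their own list (y axis, %). Points are the ChIP replicates and the combined list, bars are exact 95% intervals and the dotted line marks 5%; the third stretch is highest in each list, at 9.76%, 8.44% and 8.38%.

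Spacing between members was short and uneven. The median gap between neighbouring members was 3.44 kb, with a middle range of 1164 to 9596 bases, and 59.5% of gaps were shorter than 5 kb. The longest 5% of gaps began at 35.5 kb. In the replicates the median gap was 12.2 kb in replicate 1 and 10.6 kb in replicate 2, and members found in both stood 20.1 kb apart in the median. There were 75 gaps of fewer than 100 bases and 302 of fewer than 500 bases between members. On 3L the median was 3444.5 bases, within the range of the other large arms, with 3309 bases on X, 3790 on 2L, 2789 on 2R and 3160 on 3R. The 3R values take in its Hox gene complexes.

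Close members formed runs of up to 21. Members less than 5 kb apart were joined into runs, which gave 903 runs, of which 438 were single members. Runs of 5 or more numbered 115 and took in 868 members, or 38.9% of all. The largest was 3L:9415382-9490356, where 21 members covered 58.6% of 74975 bases. It held 6 clusters of replicate 1 and 7 of replicate 2, and 5 of its members were found in both. The strongest of these, from 9418301 to 9422229, scored 0.917 in the combined list, 1.04 in replicate 1 and 1.02 in replicate 2. Beyond 9457657 the run held members of 1006 to 2835 bases, and each replicate had 1 cluster there, at different members.

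The next runs had 16 members each. One, 3L:1530710-1587893, covered 69.0% of 57.2 kb and held 8 and 9 replicate clusters, the most of the 10 largest runs in each replicate. The other, 3L:13987483-14047522, lay in the thin part of the arm and held 6 and 7 replicate clusters over 60.0 kb. Another run, of 14 members, lay at 3L:7305079-7364700. The run 3L:17940507-17994088 also had 14 members and contains the widest of the arm, and 2 of the 14 were found in both. Members in runs of 5 or more were found in both about as often as single ones, in 28.5% of 868 and 28.5% of 438. Those in such runs were found in neither in 42.3%, against 53.7% of single ones, and their median widths were 1845.5 and 1583.5 bases. These differences were not tested.

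Members found in both replicates did not follow one another along the arm more often than others did. A member found in both was followed by another such member in 24.8% of 613 cases (95% interval 21.4 to 28.4%), and a member found in neither was followed by one in 27.1% of 1074 cases. After a member found in replicate 2 alone the share was 34.8% of 276 (29.2 to 40.7%). The longest row of neighbours all found in both had 6 members, at 3L:17504939-17557883. A row of 5 at 3L:22814766-22842025 spans 27.3 kb and ends with 3L:22839754-22842025, the third highest of the members found in both. In the other direction, 19 members in a row at 3L:19395889-19574295 and 18 in a row at 3L:22463229-22701388 were not found in both.

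The arm had 13 gaps of more than 100 kb between members. The longest was 3L:23463796-23994270, of 530.5 kb, and the second 3L:23099335-23293731, of 194.4 kb, both on the centromere side. Away from the centromere the longest were 3L:5359930-5532036, of 172.1 kb, 3L:15331000-15486256, of 155.3 kb, 3L:20537625-20685480, of 147.9 kb, and 3L:12886808-13014088, of 127.3 kb. The gap 3L:5359930-5532036 follows shortly after the wide member 3L:5347235-5355047, the highest in score of the 10 widest. Gaps 3L:24114963-24256632 and 3L:23995451-24109609, of 141.7 and 114.2 kb, completed the 8 longest.

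Long empty stretches of the replicates overlapped, and some of them had nearly the same edges. Replicate 1 had 32 gaps of more than 100 kb, and in 25 of them the longest common part with a gap of replicate 2 was itself over 100 kb. In 7 of the 32 both edges lay within 500 bases of those of a replicate 2 gap, in 17 only 1 edge did and in 8 neither did. Both gaps described next are among the 7. The gap of 209.2 kb at 3L:9968820-10178028 in replicate 1 was matched by 3L:9968816-10178024 in replicate 2, so each edge differed by 4 bases. In the combined list 7 members overlapped the replicate 1 gap, a count that takes in any member reaching across an edge. The gap of replicate 1 at 3L:18433908-18610360 began at the same base in replicate 2 and ended 33 bases later there. By the same count, 3 members of the combined list overlapped it. Replicate 2 had its longest gap at 3L:22461040-22709289, of 248.25 kb, which 3 clusters of replicate 1 overlapped.

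The ends of the arm differed. At the telomere side the first member lay at 3L:65969-67310, found in neither replicate, and the first found in both was 3L:128019-134864, of 6846 bases, with a combined score of 0.861. The first cluster lay at 3L:127913-133396 in replicate 1 and at 3L:123323-124828 in replicate 2. Beyond 23 Mb, the last 1.54 Mb held 18 members, or 11.7 per Mb, against 96.1 per Mb over the first 23 Mb. Of these 18, 1 was found in both, at 3L:23097583-23099334, with a combined score of 0.397. Another 14 were found in neither.

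The last members toward the centromere were also narrow. Their median width was 1196 bases, against 1759 bases for the members before 23 Mb, and 10 of the 18 were narrower than any replicate cluster. Their median score was 0.451, against 0.422 before 23 Mb. Bins 24 and 25 held 2 and 1 members of the top 5% by score. These scored 1.997, 0.965 and 0.846, were 1001 to 1075 bases wide and were found in neither replicate. Replicate 1 had 2 clusters beyond 23 Mb, at 3L:23097585-23098991 and 3L:24410009-24411389, with an empty stretch of 1311 kb between them. Replicate 2 had 3 clusters there and none after 23446421. The last member, 3L:24426532-24427632, ended 115.9 kb before the end of the assembled arm. The part that the alignment of reads in repeats plays in these counts was not tested.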

How the data were processed

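The deposited data are 3 lists of regions of significant enrichment on FlyBase release 5, per the file headers. One list belongs to each ChIP replicate and one to the replicates together. The submitters' processing notes name Bowtie 0.12.7. Not given in the sources used here are the caller, its threshold, how replicates were combined and how many reads there were. The labels say that the inputs were crossed: input 1 went with ChIP replicate 2, and input 2 with ChIP replicate 1. Each deposited region has a score, on a scale that the file headers do not name. Positions are counted from 1.

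The members are all combined-list rows on 3L. They, the classes and the named regions were chosen with earlier results of these data known. Named regions follow a rule: the 10 highest and 10 widest members found in both replicates, the 5 highest found in neither, the longest gaps and runs, the densest and sparsest bins, and the first and last members. The members in which replicate clusters did not meet, the rows of neighbours with like support and the gaps with matching edges were named after their values were seen. Overlap means 1 base or more. Bins were assigned by cluster midpoint. Shares carry exact 95% Clopper-Pearson intervals; the difference between arms has a normal interval. No test was run, since clusters of a library are not replicates and the inputs have no list here. The overlap and gap functions were tested on simulated data. Alternatives were a 50% overlap, the upper part of each list by score, clusters closer than 500 bases joined, a minimum width, each replicate left out, covered bases, bins of 500 kb and runs with gaps under 2 kb. Genes and sequences were not used here, as the annotation at hand is on release 6. Python 3.11.15, NumPy 2.4.6, pandas 2.3.3, SciPy 1.17.1 and Matplotlib 3.10.9 were used.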

Additional observations from a re-analysis of the deposited data

Results flagged for a closer look

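The heterochromatic sequence 3LHet, of 2.56 Mb, lies outside the assembled arm and outside the comparisons above, and is given for that reason. It held 19 clusters of the combined list, more than the 3 that a count of 0 allows, of which 2 were found in both replicates. Replicate 1 had 2 clusters there and replicate 2 had 3. The combined count lay above 3, a fixed limit for what a count of 0 allows, and the replicate counts did not. No input list is at hand for a background count, so whether the 19 exceed background was not tested.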

How the results depend on the processing

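Of 45 alternative values for 13 results, 18 were labelled the same, 27 moved and 0 reversed. The same meant within the SD or interval of the reported value. Leaving out 1 of 2 replicates always stays within that SD, so those labels were fixed in advance for values per replicate. Only the score difference between both and neither could be labelled reversed. The variation between bins had no interval, and that of the longest gap was its own value, so any change in these counted as moved. Most moves follow from how an alternative is built, as it keeps fewer, wider or merged clusters. With only the clusters that scored above their list's median, 3L had 399.5 clusters over 0.971 Mb per replicate, 25.3% of members in both and 52.1% in neither, a median gap of 11215 bases with 29.4% of gaps under 5 kb, a median width of 2134.5 bases, and a score difference between both and neither of 0.290. The share of clusters on the telomere side of the arm's middle was 58.9% in the combined list and 58.8% per replicate, against 55.3% and 54.8% with all scores. With clusters closer than 500 bases joined, there were 882 clusters per replicate, 31.4% of members in both, 45.9% in neither, a median gap of 4481.5 bases, 53.2% of gaps under 5 kb and a median width of 1884 bases. At the replicates' minimum width, the shares were 38.8% and 29.7%, the median gap was 4932 bases, 50.2% of gaps were under 5 kb and the longest was 855.4 kb. Runs with gaps under 2 kb took in 35.8% of gaps. With 1 replicate left out, 39.4 to 39.9% of members met a cluster of the other, while 60.1 to 60.6% did not; the clusters per replicate ranged from 918 to 927, the covered length from 1.89 to 1.93 Mb, the telomere-side share from 54.1 to 55.4%, and the share meeting the other replicate, 3L minus the other arms, from 0.165 to 0.582 percentage points. That is the opposite sign to -0.387 for both replicates, and all of these intervals include 0. No paired analysis was possible because only the ChIP samples come with lists. Without read depth, no lower limit for weak clusters can be stated.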
